A study of Mus musculus with 6 samples.

Results

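The genes described here encode the subunits of the transcription factor NF-κB (*Nfkb1*, *Nfkb2*, *Rel*, *Rela* and *Relb*) and proteins that regulate it (*Nfkbia*, *Nfkbib*, *Nfkbie*, *Nfkbiz* and *Tnfaip3*). They were chosen by name, as all probes that the array files assign to these 10 of 34592 gene names, which gave 14 of 55681 probes. The regulators are grouped as inhibitors below, although the product of *Nfkbiz* acts with NF-κB on a subset of its target genes. NF-κB subunits pair into dimers that IκB-type proteins hold inactive in the cytoplasm. Stimuli such as TNF, interleukin-1 and Toll-like receptor ligands activate the IKK complex, which marks IκB for degradation and frees the dimers to enter the nucleus. Several inhibitor genes are themselves NF-κB targets, and in fibroblasts the pathway drives chemokines, cytokines and matrix-degrading enzymes.

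Mouse 3T3 fibroblasts received either GapmeR *Ntep*, designed to have the long non-coding RNA *Ntep* cleaved by RNase H, or GapmeR control, each at 50 nM for 48 h. Total RNA from 3 independent experiments was hybridised in 1 colour to 6 Agilent arrays on 1 slide, 3 per label. Signals are normalized intensities, with a floor of 20 for low values, and differences are log2 values of GapmeR *Ntep* minus GapmeR control. Between 43.75% and 53.34% of the probes on an array were well above background, and no spot was saturated. As a model, the comparison is limited to an immortalised line and to 1 GapmeR against *Ntep*, and it has no arrays from untreated cells.

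The targeted RNA was examined first. The *Ntep* probe (A630089N07Rik, chr16:98283712-98283771, minus strand, mm9) had intensities of 474, 91.4 and 227 on the GapmeR *Ntep* arrays and 271, 272 and 362 on the GapmeR control arrays of experiments 1, 2 and 3. In experiment 1 the array labelled GapmeR *Ntep* was thus the higher, and in the other experiments the lower, so the labels overlapped. Within experiments the log2 difference was 0.81, -1.57 and -0.67. Over all arrays it was -0.48 (SE 0.58, limma adjusted p = 0.634), and an exact permutation test gave p = 0.7, where 3 against 3 arrays cannot go below 0.1. The difference was -1.16 without experiment 1, -1.08 without *Ntep* replicate 1, 0.13 without *Ntep* replicate 2 and -0.18 with normexp background correction. It passed in none of these fits. The normexp fit adds 50 to every signal, which makes differences of dim probes smaller. Because experiment 1 went against its label, arrays are named below only by their labels, and every direction given rests on those labels. The study reports, also by qPCR, less RNA of the collagen genes *Col1a1* and *Col3a1* on *Ntep* inhibition. On these arrays the differences in experiments 1, 2 and 3 were -0.51, -0.11 and -0.66 for *Col1a1* and -1.14, -0.61 and -0.69 for *Col3a1*, so experiment 1 had the same sign as the others. Over all arrays neither passed (-0.43 and -0.81, adjusted p = 0.213 and 0.160, lower in all 3 experiments). Whether the probe covers the stretch bound by the GapmeR was not examined.

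Fibroblast identity was checked with 10 marker genes, of which 8 were well above background on all 6 arrays. The probes of *Col1a2*, *Col3a1* and *Vim* held most of the summed signal, although signals of different probes do not rank RNA levels. The proteoglycan gene *Lum* was well above background on 1 array only. Summed marker intensities were 458363, 597927 and 458510 on arrays labelled GapmeR *Ntep* and 687206, 744608 and 673314 on control arrays, without overlap. The 9 tested markers had a median of -0.71, and 8 of them were below control under the label GapmeR *Ntep*. Of the 9, 0 passed an adjusted p of 0.05 with limma. An unadjusted limma p under 0.05 was found for 2, beside 5450 of 21413 gene names. Without GapmeR *Ntep* replicate 1 the median of these markers was -0.47. Macrophage markers were summed likewise, since NF-κB genes are strongly used in such cells, and gave 76090.4, 43130 and 50927 on arrays labelled GapmeR *Ntep* against 27901, 21198 and 22618 on control arrays. Of these 10 markers 7 were tested, 5 of them higher and 2 lower, with a median of 1.12, or 0.62 with the mean over all tested probes of a gene. *Itgam* had the brightest probe, and the sum rests on *Itgam*, *Cd68* and *Cd14*, which held 92.6% to 96.4% of it on each array. *Cd68*, a lysosomal glycoprotein gene, was the 1 marker that passed (difference 1.22, adjusted p = 0.0276, higher in all 3 experiments), beside 5.54% of all tested gene names. With experiments as blocks *Cd68*, *Csf1r* (3.19), *Itgam* (1.26) and *Cd14* (1.12) passed as higher, and *Aif1* (-1.28) and the fibroblast marker *Dcn* (-1.83) as lower, beside 15.2% of all gene names in that fit. These markers, apart from *Cd68*, were named after their values were seen. *Cd68* also passed without GapmeR *Ntep* replicate 2 (0.0473). It did not pass without GapmeR *Ntep* replicate 1 (0.0569), control replicate 1 (0.0580), control replicate 2 (0.132), *Ntep* replicate 3 (0.0924) or control replicate 3 (0.118), nor without experiment 1 (0.0551) or with the methods' t-test (0.0501), in a range of 0.0138 to 0.132 over the alternatives. The defining macrophage genes *Ptprc*, *Adgre1* and *Tyrobp* were well above background on 0 of 6 arrays. Both marker sums differed between the labels without overlap, as did the sum of endothelial markers and *Nfkbie*, *Nfkbib*, *Nfkbia* and *Nfkb1* below. Such separation was found for 32.2% of all tested probes. The part of the marker sums in the result was not tested. In such bulk RNA, fewer cells of a type and less RNA per cell cannot be told apart.

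Across the 10 genes, 9 could be tested, all of which met the intensity minimum under both labels, and the inhibitors *Nfkbie* and *Nfkbib* changed in opposite directions. Each gene is represented by its brightest probe, and 2 of 9 genes passed an adjusted p under 0.05, beside 5.54% of all 21413 tested gene names. In the higher direction this was 1 gene beside 2.19%, and in the lower direction 1 gene beside 3.36%. Counted by probe, 3 of 13 tested probes passed, beside 5.57% of all tested probes, of which 2 were higher (beside 2.23%) and 1 lower (beside 3.34%). Of the 13 probes 2 passed a fold change of 2 with an unadjusted p under 0.01, beside 8.22%. Values of the 2 labels were fully separated for 5 of 13 probes, beside 32.2% of all tested probes, a share near the background. By sign alone, 4 of the 9 genes had a positive difference and 5 a negative one. With experiments as blocks, 4596 probes (14.9%) passed in place of 1724, and the same number of member probes, 3, did.

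*Nfkbie* encodes IκBε, an inhibitor that is itself induced by NF-κB and restrains dimers containing Rela or Rel. Its probe (chr17:45700000-45700059, plus strand, mm9) had intensities of 555, 371 and 548 on arrays labelled GapmeR *Ntep* and 3369, 1536 and 1543 on GapmeR control arrays. All control arrays were above all arrays labelled GapmeR *Ntep*, and the control array of experiment 1 stood well above the other controls. Means were 491 ± 104 and 2149 ± 1056 (SD, n = 3 each). *Nfkbie* fell by 2.05 on the log2 scale (95% confidence interval -2.95 to -1.14, adjusted p = 0.0381), and it was lower in all 3 experiments. Within experiments the difference was -2.60, -2.05 and -1.49, so the experiment whose *Ntep* value went against its label had the largest difference of the 3 for *Nfkbie*. Of all probes 0 passed without control replicate 2 or without *Ntep* replicate 3, and 5 without control replicate 3, so a call lost there is not particular to *Nfkbie*. The call of *Nfkbie* was lost without GapmeR *Ntep* replicate 1 (adjusted p = 0.0769), control replicate 1 (0.0580), *Ntep* replicate 2 (0.0691), control replicate 2 (0.132), *Ntep* replicate 3 (0.117) or control replicate 3 (0.114), while the difference kept between -2.24 and -1.66. Without experiment 1 it was -1.78 (adjusted p = 0.0549), in a range of 0.0216 to 0.132 over the alternatives. The call was also lost without an intensity filter (0.111), with the methods' t-test (0.102) and with the spread estimated over all probes (0.0642).

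*Nfkbib* encodes IκBβ, which binds Rela and Rel dimers and is degraded more slowly than IκBα after many stimuli. Its brightest probe (chr7:29544160-29544219, minus strand, mm9) had intensities of 19927, 15486 and 18219.6 on arrays labelled GapmeR *Ntep* and 10355, 7847 and 8839.7 on control arrays. Every array labelled GapmeR *Ntep* was above every control array. *Nfkbib* rose by 0.99 (95% confidence interval 0.52 to 1.46, adjusted p = 0.0448), with 0.94, 0.98 and 1.04 in the experiments. A second probe, whose 60 bases lie in a span of 1396 bases (chr7:29545252-29546647), gave 7148, 6098 and 6369 on arrays labelled GapmeR *Ntep* and 3311, 2456 and 2668 on control arrays. It showed the same order, with no overlap and a difference of 1.23 (adjusted p = 0.0297) that was present in all 3 experiments (1.11, 1.31 and 1.26). The last probe lies downstream of both (chr7:29543270-29543329) and disagreed with them. It was dim, with 135, 93.8 and 91.5 on arrays labelled GapmeR *Ntep* and 138, 97.8 and 130.4 on control arrays, and on 1 of the former it was not well above background. There the labels overlapped, and the difference was -0.20 (adjusted p = 0.628, lower in all 3 experiments). The call of the brightest probe was lost without GapmeR *Ntep* replicate 1 (adjusted p = 0.0947), control replicate 1 (0.0659), *Ntep* replicate 2 (0.0536), control replicate 2 (0.177), *Ntep* replicate 3 (0.144) or control replicate 3 (0.165). The difference stayed between 0.90 and 1.10 in these fits. Of the second probe, the call held without *Ntep* replicate 2 (0.0473) and was lost without *Ntep* replicate 1 (0.0636), control replicate 1 (0.0533), control replicate 2 (0.138), *Ntep* replicate 3 (0.1095) or control replicate 3 (0.126). Both probes also missed the threshold without an intensity filter (0.0754 and 0.0509) and with the methods' t-test (0.0767 and 0.0586), and the brightest did so with 75th percentile scaling (0.0662) and without experiment 1 (0.0634). Over all alternatives the adjusted p ranged from 0.0177 to 0.177 for the brightest probe and from 0.0138 to 0.138 for the second. The sequences of the 2 probes on which the rise rests are shown 5′ to 3′ as the files give them, since the dim probe downstream did not share it.
*Nfkbib* brightest probe: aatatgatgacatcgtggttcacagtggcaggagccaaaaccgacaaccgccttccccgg
*Nfkbib* second probe: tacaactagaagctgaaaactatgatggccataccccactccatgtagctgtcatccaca

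*Nfkbia* encodes IκBα, the inhibitor that is resynthesised rapidly in the feedback loop of the pathway. It had intensities of 23082, 22899 and 20847 on arrays labelled GapmeR *Ntep* and 33418, 29061 and 28245 on control arrays. All control arrays were the higher ones, and the labels did not overlap, yet the difference of -0.44 (95% confidence interval -0.83 to -0.04) did not pass after adjustment (adjusted p = 0.163). It was lower in all 3 experiments, by -0.53, -0.34 and -0.44.

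*Nfkbiz* encodes the nuclear protein IκBζ, which acts with NF-κB on a subset of its target genes. Its intensities were 271, 319 and 355 on arrays labelled GapmeR *Ntep* and 367, 360.5 and 291 on control arrays. The labels overlapped, and the order turned in experiment 3. The difference was -0.11 (adjusted p = 0.753). It lay between -0.21 and -0.0042 with 1 array left out, and passed in none of these fits.

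*Tnfaip3* encodes A20, a ubiquitin-editing enzyme that shuts off signalling upstream of IKK. It had intensities of 5646, 2918 and 2420.1 on arrays labelled GapmeR *Ntep* and 7484, 2949 and 2737 on control arrays. Experiment 1 stood apart under both labels, with a log2 level 1.24 above the mean of the other experiments. Within experiments the differences were -0.41, -0.02 and -0.18, and over all arrays the difference was -0.20 (adjusted p = 0.830).

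**Figure D1:**
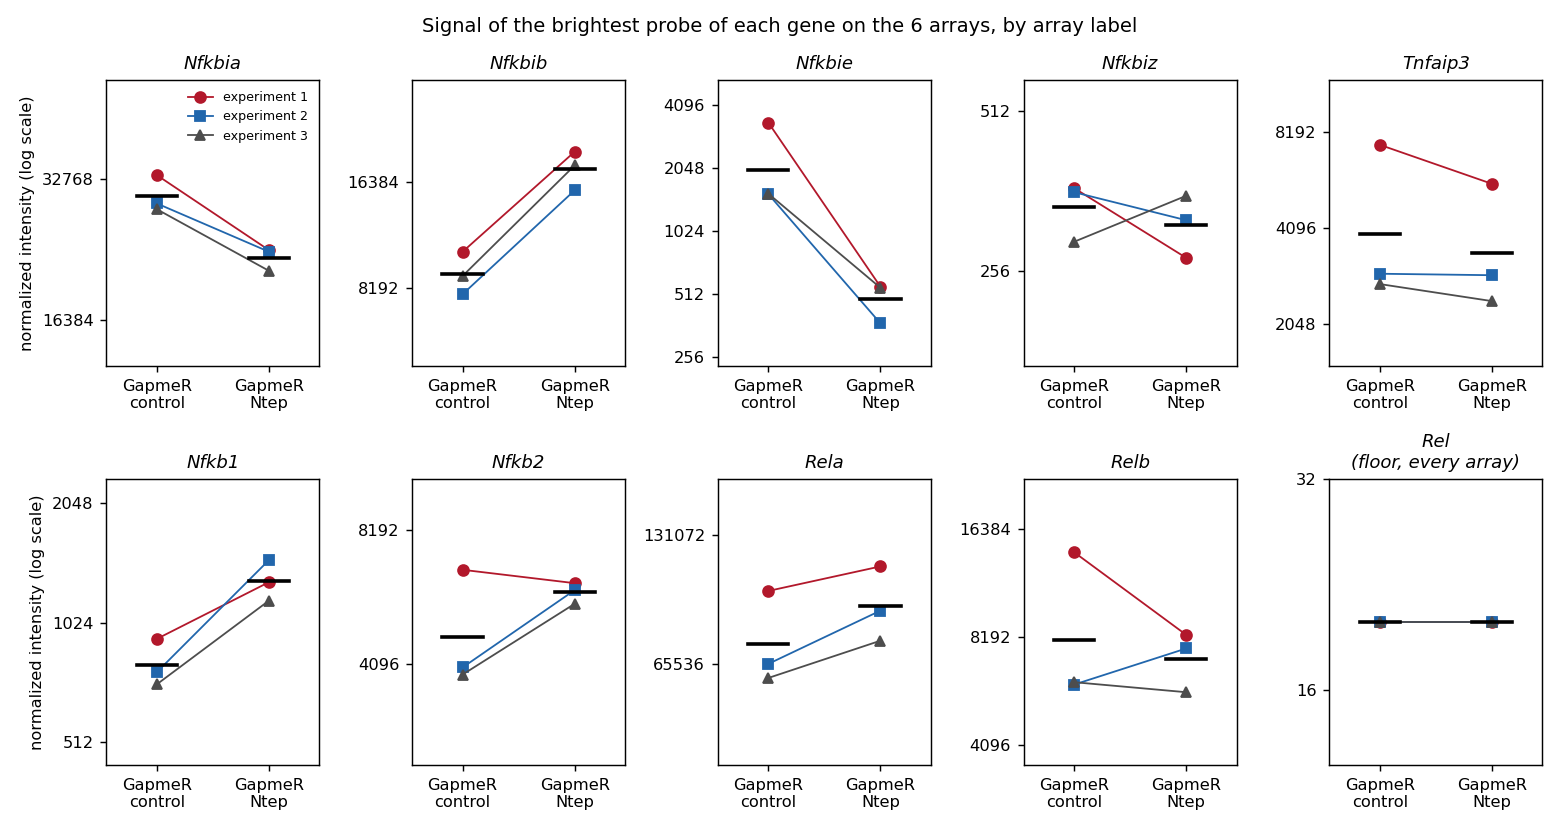
Normalized intensity (log scale, 1 panel per gene with its own axis) of the brightest probe on the arrays labelled GapmeR control and GapmeR *Ntep*, with 1 coloured line per experiment and a black bar at the mean of the log2 values. *Nfkbie* lies at 371 to 555 on arrays labelled GapmeR *Ntep* and at 1536 to 3369 on control arrays, *Nfkbib* is higher on every array labelled GapmeR *Ntep*, and *Rel* is at the floor of 20.

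Among the subunits 0 of 4 tested genes passed with limma, beside 5.54% of gene names. An unadjusted limma p under 0.05 was found for 1, *Nfkb1*, beside 5450 of 21413 gene names. *Rela* encodes the subunit with the main activating domain of the canonical pathway. Its intensities were 110868, 87412 and 74367 on arrays labelled GapmeR *Ntep* and 97154, 65645 and 60862 on control arrays. Values overlapped between labels, although within each of the 3 experiments the array labelled GapmeR *Ntep* was the higher (0.19, 0.41 and 0.29). The difference was 0.30 (95% confidence interval -0.34 to 0.93, adjusted p = 0.506). It was 0.14 without GapmeR *Ntep* replicate 1, 0.51 without control replicate 1, 0.17 without control replicate 3 and 0.54 with 75th percentile scaling, and passed in none of these.

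*Nfkb1* encodes a precursor that is processed to the DNA-binding partner of Rela and, unprocessed, acts as an IκB. Its brightest probe (chr3:135254550-135254609, minus strand, mm9) had 1296, 1474 and 1164.5 on arrays labelled GapmeR *Ntep* and 933, 769 and 717 on control arrays. These did not overlap, and the difference was 0.70 (95% confidence interval 0.24 to 1.17, adjusted p = 0.0846), higher in all 3 experiments. It passed with normexp background correction (0.62, adjusted p = 0.0434), a fit in which all 55681 probes were tested. Over the alternatives the adjusted p ranged from 0.0434 to 0.274. The other *Nfkb1* probe lies downstream on the same strand (chr3:135247621-135247680) and gave 1191, 549 and 955 on arrays labelled GapmeR *Ntep* and 1048, 796 and 853 on control arrays. The probes disagreed, because here the arrays labelled GapmeR *Ntep* held both the highest and the lowest value. Its difference was -0.06 (adjusted p = 0.919).

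*Nfkb2* encodes the precursor whose processing marks the non-canonical pathway. Its intensities were 6213, 5995.5 and 5585 on arrays labelled GapmeR *Ntep* and 6659, 4016 and 3871 on control arrays. The control array of experiment 1 was the highest of all, and the other control arrays the lowest. Differences within experiments were -0.10, 0.58 and 0.53, and the overall difference was 0.34 (adjusted p = 0.452). It was 0.58 without GapmeR control replicate 1, 0.20 without control replicate 3 and 0.54 without experiment 1, and passed in none of these.

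*Relb* encodes the partner of the processed Nfkb2 protein. Its brightest probe had 8294, 7599.7 and 5739 on arrays labelled GapmeR *Ntep* and 14105, 6026 and 6120.2 on control arrays. A second probe, which shares 9 bases with it, had 4392, 4218 and 3932 on arrays labelled GapmeR *Ntep* and 7549, 3378 and 3319 on control arrays. On both, the control array of experiment 1 was far above the rest. The differences were -0.17 (adjusted p = 0.801) and -0.07 (adjusted p = 0.915). They became 0.23 and 0.32 without GapmeR control replicate 1 (adjusted p = 0.522 and 0.275), in ranges of 0.522 to 1.00 and 0.274 to 1 over the alternatives. Without experiment 1 they were 0.12 and 0.28. *Rel*, a subunit used mainly in lymphoid and myeloid cells, was at the floor of 20 on every array and well above background on 0 of 6, so it was not tested. Its only probe has 60 bases, but the coordinates given for it span 15 (chr11:23641729-23641743). The floor value thus does not show that *Rel* RNA was absent.

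The groups of genes were then set side by side by counts and medians. The 4 tested subunits had a median difference of 0.32, with 3 higher and 1 lower. The 5 inhibitors had a median of -0.20, with 1 higher and 4 lower, and 1 passed in each direction. For all tested gene names the median was 0.06. With scaling to the 75th percentile in place of quantile normalization the median of all gene names moved to 0.21, against which the subunits stood at 0.45 and the inhibitors at -0.19. Medians of the inhibitors within experiments were -0.44, -0.18 and -0.18, and those of the subunits 0.05, 0.50 and 0.41. Without GapmeR *Ntep* replicate 1 the inhibitor median was -0.46, without control replicate 1 -0.05, without *Ntep* replicate 2 -0.12, without control replicate 2 -0.41, without control replicate 3 -0.46 and without experiment 1 -0.09. The subunit median was 0.54 without control replicate 1 and 0.18 without control replicate 3.

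Further proteins of the IκB type gave 0 of 3 genes that passed with limma, beside 5.54% of all gene names. Of the 3, 0 had an unadjusted limma p under 0.05, beside 5450 of 21413 gene names. The median of the 3 was 0.49, and 0.30 without control replicate 2. *Nfkbid*, a nuclear IκB protein, had 1247, 1028 and 983 on arrays labelled GapmeR *Ntep* and 967, 694 and 623 on control arrays. These values did not overlap, and the difference of 0.53 (adjusted p = 0.215) was positive in all 3 experiments. *Nfkbil1*, an IκB-like gene, differed by 0.49 (adjusted p = 0.363) and *Bcl3*, a nuclear coactivator, by -0.02 (adjusted p = 0.966). *Bcl3* resembled *Relb* in that the control array of experiment 1 was the highest (7361), and its difference became 0.23 without that array.

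Genes that act before the inhibitors were taken by role, and each count is to be read beside 5.54% of gene names, or 15.2% with experiments as blocks. By direction the shares were 2.19% higher and 3.36% lower, and with blocks 1519 higher and 1730 lower of 21413 gene names. Of 11 genes of the IKK complex and its upstream kinases 0 rose and 2 fell (median -0.16). *Tab3*, an adaptor of the kinase TAK1, had 1508, 2204 and 1937 on arrays labelled GapmeR *Ntep* and 5471, 4497 and 4942 on control arrays, and fell by 1.41 (adjusted p = 0.0276). *Map3k14*, the kinase NIK of the non-canonical pathway, fell by 1.17 (adjusted p = 0.0461), but a dimmer probe of it did not pass (-0.39, adjusted p = 0.394). Both were lower in all 3 experiments. Of 19 adaptors and ubiquitin ligases 1 rose and 0 fell (median 0.03). This was *Tirap*, which links Toll-like receptors to Myd88, with 7801, 5572 and 6707 on arrays labelled GapmeR *Ntep* and 2855, 2890.0 and 2653 on control arrays. *Tirap* rose by 1.25 (adjusted p = 0.0291, all 3 experiments). With experiments as blocks 5 adaptors passed, *Tirap* and *Ripk1* as higher and *Traf5*, *Irak1* and *Sharpin* as lower, all but *Tirap* being named after their values were seen. Among 12 tested of 13 further negative regulators 0 rose and 2 fell (median -0.24), and 4 passed with blocks, with *Cyld* added as lower and *Tax1bp1* as higher (named after their values were seen). *Itch*, a ubiquitin ligase that works with A20, fell by 1.32 (adjusted p = 0.0351), and *Pdlim2*, a ligase that removes nuclear Rela, fell by 0.99 (adjusted p = 0.0446), each in all 3 experiments. Of 17 cytokines and receptors that feed the pathway 12 were tested. Of these *Ltb* (named after its values were seen) met the intensity minimum only under the label where it is high, and is left out of the counts. The 11 others gave 0 higher and 2 lower calls (median -0.18). Of gene names that met the minimum under both labels 2.13% were called higher and 3.09% lower. With blocks the 11 genes gave 3 lower calls, *Cd40* being added after its values were seen. The genes of the ligands *Tnf* and *Il1b* were well above background on 0 arrays. *Il1rap*, a chain of the interleukin-1 receptor, fell by 1.25 (adjusted p = 0.0344), and by 1.47 with another probe (adjusted p = 0.0276), while its remaining probe was at the floor. *Tlr3*, the receptor for double-stranded RNA, had 23.3, 55.6 and 77.3 on arrays labelled GapmeR *Ntep*, of which 1 was well above background, and 866, 856 and 550.2 on control arrays. *Tlr3* fell by 4.0 (adjusted p = 0.0231, all 3 experiments), a size that rests partly on arrays not well above background and was -2.26 with normexp (adjusted p = 0.0109), in a range of 0.0104 to 0.121 over the alternatives. None of these 7 calls was kept without control replicate 1 (adjusted p = 0.0578 to 0.0875), control replicate 2 (0.121 to 0.170), *Ntep* replicate 3 (0.0782 to 0.147) or control replicate 3 (0.0835 to 0.145). Without *Ntep* replicate 1 only *Tlr3* passed (range 0.0275 to 0.1005), and without *Ntep* replicate 2 *Itch*, *Map3k14*, *Tab3*, *Tirap* and *Tlr3* did (0.0393 to 0.0673). With the methods' t-test 0 of the 7 passed (0.0575 to 0.0938, each with an unadjusted p under 0.05), without an intensity filter only *Tirap* did (0.0499 to 0.0992), and without experiment 1 only *Tlr3* (0.0443 to 0.105). *Map3k14* and *Pdlim2* did not pass with 75th percentile scaling (range 0.0152 to 0.0888), nor *Map3k14* with the spread estimated over all probes (0.0577).

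The medians of these lists moved with single arrays. That of the kinases was -0.10 without control replicate 1, -0.28 without control replicate 3 and -0.065 without experiment 1. That of the adaptors turned to -0.03 without *Ntep* replicate 1, -0.05 without control replicate 2 and -0.05 without control replicate 3. It was 0.18 without control replicate 1 and 0.12 without *Ntep* replicate 3. That of the negative regulators was -0.14 without *Ntep* replicate 2, -0.13 without control replicate 3 and -0.15 without experiment 1. With 75th percentile scaling the medians were -0.09 for the kinases, 0.12 for the adaptors, -0.05 for the negative regulators and -0.09 for the cytokines and receptors, and that of the last was -0.06 with the mean over all probes of a gene.

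Known NF-κB target genes were listed from 36 names, of which 32 were tested, 18 higher and 14 lower, with a median of 0.13. That median was 0.23 without control replicate 1, 0.20 without *Ntep* replicate 2, 0.05 without control replicate 2, -0.03 without control replicate 3, 0.23 without experiment 1, 0.19 with 75th percentile scaling and 0.08 with the mean over all probes of a gene. The list contains *Relb*, *Nfkb2*, *Nfkbia* and *Tnfaip3*, and it shares *Traf1*, *Birc3*, *Tnip1* and *Bcl3* with the lists above. *Mmp3* and *Csf2* (the latter named after its values were seen) met the intensity minimum only under the label where they are high. Both are included in the counts and medians just given, and are left out of the next counts. Without them 16 genes were higher and 14 lower. Of the 30 others, with a median of 0.07, 2 rose, beside 2.13% of gene names that met the minimum under both labels, and 1 fell, beside 3.09%. With experiments as blocks *Plau* and *Saa3* passed among these 30 (limma adjusted p = 0.0304 and 0.0451), beside 15.2% of all tested gene names in that fit. *Mmp3*, the matrix protease stromelysin, had 986, 133 and 238 on arrays labelled GapmeR *Ntep* and was well above background on 0 of 3 control arrays. It was at least 6.29-fold higher, a bound obtained by raising each control value to the dimmest signal well above background on its array. The bound was 3.56-fold without *Ntep* replicate 1 and 9.67-fold without *Ntep* replicate 2. The adjusted p of 0.0462 belongs to the fit with control values near the floor (difference 3.71, higher in all 3 experiments). There *Mmp3* met the intensity minimum only under the label where it is high, so it is not read as a call. A filter on the mean of all 6 arrays was also met only through the arrays labelled GapmeR *Ntep* (mean 452, against 24.9 on control arrays). That filter therefore cannot decide the call. With normexp the fitted difference of *Mmp3* was 1.51 and did not pass (adjusted p = 0.160), in a range of 0.0260 to 0.172 over the alternatives. *Plau*, the urokinase gene, had 449, 156 and 233 on arrays labelled GapmeR *Ntep* and 60.5, 49.7 and 42.5 on control arrays, of which 1 was well above background. *Plau* rose by 2.33 (adjusted p = 0.0352, all 3 experiments), but by normexp the difference was 1.08 and did not pass (adjusted p = 0.0727), in a range of 0.0205 to 0.146 over the alternatives. The acute-phase gene *Saa3* rose by 1.01 (adjusted p = 0.0489, all 3 experiments) and passed with only 5 of 19 alternatives. Its difference was 0.42 with normexp (adjusted p = 0.126), and it also missed the threshold with a floor of 5 (0.0502), an intensity trend (0.0621) and outlier spots kept (0.0502), in a range of 0.0297 to 0.189. *Nos2*, the inducible nitric oxide synthase, had 87.0, 236 and 215 on arrays labelled GapmeR *Ntep* and 2650.3, 1117 and 750 on control arrays. *Nos2* fell by 2.99 (adjusted p = 0.0455, all 3 experiments), but did not pass with experiments as blocks (adjusted p = 0.0607), in a range of 0.0238 to 0.154 over the alternatives. A further 9 targets are shared with the interferon response, and 8 were tested, 1 higher and 7 lower (median -1.21). Of these 2 fell, beside 3.36% of all gene names. With blocks 5 passed as lower, beside 1730 of 21413 gene names (*Cxcl9*, *Tap1* and *B2m*, named after their values were seen, being added). *Psmb9*, a subunit of the immunoproteasome, had 252, 844 and 740.5 on arrays labelled GapmeR *Ntep* and 12258, 15979 and 13982 on control arrays. It fell by 4.69 (adjusted p = 0.0185), and the class I gene *H2-K1* by 0.88 (adjusted p = 0.0463), in all 3 experiments. Another probe of *H2-K1* did not pass (-1.10, adjusted p = 0.0635), but did with experiments as blocks (0.0343). Of the 6 genes fitted here (*Mmp3* and the called *Plau*, *Saa3*, *Nos2*, *Psmb9* and *H2-K1*), 0 passed without control replicate 1 (limma adjusted p = 0.0530 to 0.0843), control replicate 2 (0.111 to 0.189), *Ntep* replicate 3 (0.0782 to 0.142) or control replicate 3 (0.0829 to 0.180). *Plau* and *Psmb9* passed without *Ntep* replicate 1 (range over the 6 genes 0.0271 to 0.0872) and without *Ntep* replicate 2 (0.0366 to 0.0692). *Mmp3* was under the threshold in both fits, but through the same filter, and is not read as a call. None of the 6 passed without an intensity filter (0.0518 to 0.145) or with the methods' t-test (0.0592 to 0.127), and *Psmb9* and *H2-K1* alone passed with the spread estimated over all probes (0.0302 to 0.0845). Without experiment 1 *Nos2* and *Psmb9* passed (range over the 6 genes 0.0434 to 0.0758). *Mmp3* was under the threshold there too, with the same limit. *H2-K1* did not pass with 75th percentile scaling (0.0899).

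**Figure D2:**
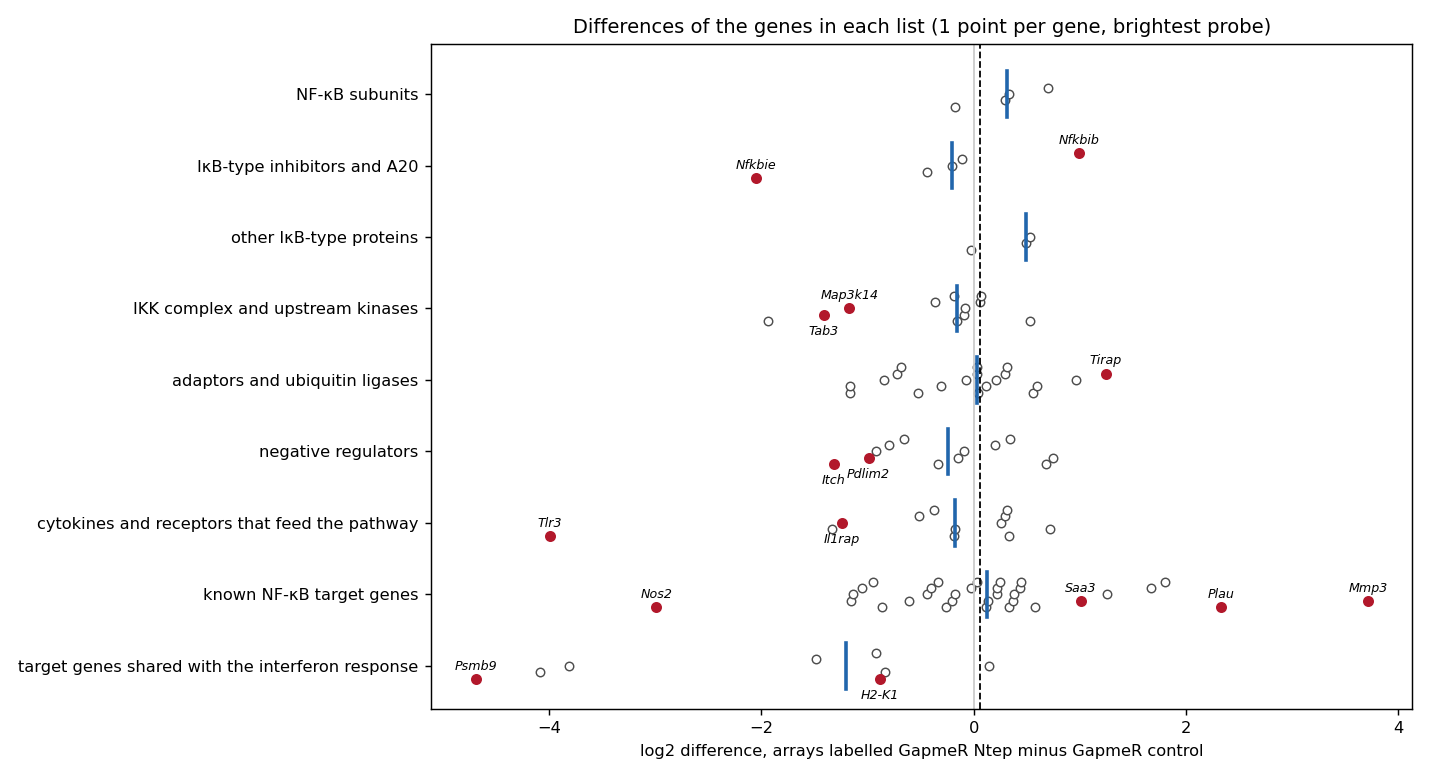
Log2 difference of each tested gene by its brightest probe, 1 point per gene and 1 line of points per list, with filled red points for an adjusted p under 0.05, open points for the others, a blue bar at the median of the list and a dashed line at the median of all tested gene names (0.06). *Nfkbie* (-2.05) and *Nfkbib* (0.99) lie at opposite ends of the inhibitors, and the targets shared with the interferon response have the lowest median (-1.21) of the lists drawn. *Mmp3*, drawn as a filled point, met the intensity minimum only under the label where it is high and is not read as a call.

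The genes most like *Nfkbib* and *Nfkbie* over the 6 arrays were sought among 16143 genes well above background on all arrays. *Nfkbib* had its highest Pearson correlations with *Mrpl9* (r = 0.998), *Siah1b* (0.998) and *BC107364* (0.997), whose differences were 1.09, 1.21 and 1.56. *Nfkbie* had them with *Txnl1* (r = 0.997), *Ube2d3* (0.995) and *Dpm1* (0.995), whose differences were -1.08, -0.51 and -0.28. These are descriptions over arrays that share labels and experiments. Of the 250 bases before the start of *Nfkbib*, 143 are covered by the neighbouring gene *Sirt2*. *Sirt2*, named after its values were seen, had 3131, 5436 and 4280.3 on arrays labelled GapmeR *Ntep* and 5729, 7299.8 and 6971 on control arrays. All control arrays were higher there, opposite to *Nfkbib*, with a difference of -0.67 (adjusted p = 0.170) that was negative in all 3 experiments.

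Because inhibitor genes are known targets of NF-κB, the 250 bases before the start of each gene were searched on both strands for the κB consensus motif of 10 letters. RefSeq windows (GRCm38.p6) were matched for 7 of the 10 genes, namely *Nfkb2*, *Rel*, *Rela*, *Nfkbia*, *Nfkbib*, *Nfkbie* and *Tnfaip3*, and not for *Nfkb1*, *Relb* and *Nfkbiz*. The motif was present in 5 of these 7, and in 3.9% of 32851 windows of all genes. *Nfkb2* had 4 matches, *Rel* 3, *Tnfaip3* 2, and *Nfkbia* and *Nfkbie* 1 each, with matches of opposite strands overlapping in *Nfkb2* and *Rel*. The *Nfkb2* window lies before 1 of 3 annotated starts and is covered by another gene (*4833438C02Rik*) over all its 250 bases. The *Tnfaip3* window lies before 1 of 2 annotated starts. The letters were not in the windows of *Rela* and *Nfkbib*. A match is a description of sequence and not a site shown to be bound. The match in *Nfkbie* ends 96 bases before the start, and that in *Nfkbia*, which reads GGGAATTTCC on the opposite strand, 19 bases before it. Whether matches go with a direction of change was not tested. *Nfkb2* (0.34) and *Tnfaip3* (-0.20), which have matches too, did not pass, nor did *Nfkbia*. The windows of the inhibitor that fell, of *Nfkbia*, and of the inhibitor that rose are shown for comparison, 5′ to 3′ on the strand of the gene, with the κB motif in capitals. For *Nfkbib* only the bases not covered by the gene *Sirt2* are given. The windows lie at chr17:45555450-45555699 (plus strand) for *Nfkbie*, chr12:55492648-55492897 (minus strand) for *Nfkbia* and chr7:28766645-28766751 (minus strand) for *Nfkbib*.
*Nfkbie*: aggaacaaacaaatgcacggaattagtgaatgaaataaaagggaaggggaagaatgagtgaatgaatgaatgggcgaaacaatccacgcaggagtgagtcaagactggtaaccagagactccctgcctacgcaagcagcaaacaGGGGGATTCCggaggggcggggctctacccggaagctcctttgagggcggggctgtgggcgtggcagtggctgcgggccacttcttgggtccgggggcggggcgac
*Nfkbia*: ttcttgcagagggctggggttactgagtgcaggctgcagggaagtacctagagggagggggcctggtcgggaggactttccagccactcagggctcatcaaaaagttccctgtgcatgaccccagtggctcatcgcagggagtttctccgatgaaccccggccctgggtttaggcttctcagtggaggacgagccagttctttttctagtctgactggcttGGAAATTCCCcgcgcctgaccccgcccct
*Nfkbib*: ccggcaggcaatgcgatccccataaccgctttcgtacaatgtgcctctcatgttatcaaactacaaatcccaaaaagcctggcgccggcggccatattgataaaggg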

How the data were processed

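For each array the authors deposited background-subtracted intensities from Feature Extraction 10.7.3.1, on a linear scale, not yet normalized between arrays. They also deposited intensities after quantile normalization with a floor of 20, used here as an alternative. Array pairs of an experiment come from the study's documentation. Same-pair arrays deviated together (residual r = 0.500, 0.322 and 0.273, against -0.361 to 0.147 across experiments).

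Outlier and control spots were left out, spots of a probe averaged, arrays quantile normalized, values under 20 set to 20 and log2 values tested in limma (version 3.58.1, under R 4.3.3 with the package data.table, release 1.17.8), two-sided and without pairing. The 30925 probes with a mean of at least 50 under the brighter label were tested, with Benjamini-Hochberg adjustment over them. The steps were tested on simulated data. A gene is represented by the probe with the highest mean over the arrays. With only 3 arrays per label, their number limits the precision.

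All members were described, and of each other pathway list the genes that passed, or else the 3 largest differences among genes well above background on all arrays. Cell-type markers are given as lists. Lists covered NF-κB subunits, inhibitors, IκB-type proteins, kinases, adaptors, negative regulators, cytokines and receptors, targets, and fibroblast, macrophage, lymphocyte, endothelial and epithelial markers. The last groups had 2, 2 and 4 tested genes, with medians of 0.42, 0.40 and 0.25. With limma 0 of these genes passed, and 0, 1 and 1 had an unadjusted p under 0.05, beside 5450 of 21413 gene names. The epithelial median was unstable, at -0.05 without GapmeR *Ntep* replicate 1, 0.42 without control replicate 1, 0.47 without *Ntep* replicate 2, 0.38 without *Ntep* replicate 3, -0.01 without experiment 1, 0.40 with 75th percentile scaling and 0.14 with the mean over probes. *Otulin* and *Adgre1* have older names in the files (*Fam105b* and *Emr1*). Members and lists were chosen with earlier results of these data known. Probe coordinates are those of mm9.

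Alternatives were 75th percentile scaling, normexp (offset 50), the authors' normalized table, a floor of 5, no intensity filter, probes well above background only, experiments as blocks, the methods' t-test, an intensity trend, the mean over probes for list medians, and each array left out. With the normexp offset of 50 all 55681 probes met the intensity minimum, so that fit had no working filter. The offset also makes differences of dim probes smaller. Chosen after seeing the data were keeping outlier spots, estimating the spread over all probes, leaving out experiment 1, and filtering on the mean of all arrays, whatever the label.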

Additional observations from a re-analysis of the deposited data

How the results depend on the processing

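*Nfkbie* was lower and *Nfkbib* higher with all 19 alternatives, but each passed with 9 of them, the adjusted p ranging from 0.0216 to 0.132 for *Nfkbie* and from 0.0177 to 0.177 for *Nfkbib*. *Nfkbib* did not pass with 75th percentile scaling (1.08, adjusted p = 0.0662). Neither passed without an intensity filter (*Nfkbie* -2.05, 0.111; *Nfkbib* 0.99, 0.0754), with the methods' t-test (0.102 and 0.0767, differences as before) or without experiment 1 (-1.78 and 1.00, adjusted p = 0.0549 and 0.0634). *Nfkbie* did not pass with the spread estimated over all probes (-2.05, 0.0642). Leaving out 1 array gave -2.24 to -1.66 for *Nfkbie* and 0.90 to 1.10 for *Nfkbib*, none of which passed. The cause was not tested.

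Of all probes 1724 passed, against 588 without an intensity filter, 2954 with only probes well above background, 4596 with the replicate block, 302 with the methods' t-test, 2794 with an intensity trend and 1007 without experiment 1. Leaving out 1 array gave 0 to 1575. The count was 0 in limma without GapmeR control replicate 2 and without *Ntep* replicate 3, where 5136 and 6191 probes had an unadjusted p under 0.05. By fold change and unadjusted p the count was 2542, against 1457 with the methods' t-test and 1631 to 3186 with 1 array left out. Member probes that passed numbered 0 without an intensity filter and with the t-test, 1 without experiment 1 and 0 to 1 with 1 array left out. Without an intensity filter and with the t-test, 5 member probes each had an unadjusted p under 0.05. Over all probes this held for 8563 of 55681 without the filter and 7029 of 30925 with the t-test. The inhibitor median lay between -0.4619 and -0.0474 with 1 array left out.

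Signs turned for differences that had not passed. With 1 array left out, *Relb* ranged from -0.39 to 0.233, its second probe from -0.2745 to 0.3185, the downstream *Nfkb1* probe from -0.3062 to 0.2576, *Tnfaip3* from -0.5581 to 0.2641, *Bcl3* from -0.2198 to 0.2325 and *Ntep* from -1.0834 to 0.1342. Without control replicate 1 these were *Relb* (0.23, second probe 0.32), *Tnfaip3* (0.26), the downstream *Nfkb1* probe (0.05) and *Bcl3* (0.23). Without *Ntep* replicate 2 they were that *Nfkb1* probe (0.26) and *Ntep* (0.13), and without *Ntep* replicate 3 *Tnfaip3* (0.05). Without experiment 1 they were *Relb* (0.12, second probe 0.28), *Nfkbiz* (0.0568) and *Bcl3* (0.25). The cause was not tested. Over the alternatives *Nfkbia* lay between -0.49 and -0.28, *Nfkbil1* between 0.30 and 0.72 and the dim *Nfkbib* probe between -0.40 and -0.05. Among the members and the genes named by rule, the replicate block changed the call of *Nos2* and of the second *H2-K1* probe. Probes near background limit *Mmp3*, *Plau*, *Tlr3* and *Rel*.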
